A study of Mus musculus with 16 samples.

Results

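The genotype dependence of the estrogen response in mouse bone was measured as an interaction: the estrogen minus vehicle difference in mice whose osteoclasts lacked estrogen receptor alpha, minus the same difference in wild-type mice. All 16 arrays of the series entered this contrast, 4 in each of 4 groups, with the replicate set (replicates 1 and 2, or 3 and 4) as a term. It was described over every gene with a named probe set and enough signal, 12735 of 18193 genes. A value above 0 means that the response was higher in the knockout mice, and a value below 0 that it was lower there, on the log2(signal + 16) scale.

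All mice were ovariectomized C57BL/6 females, and each array held the RNA of 1 mouse, from the lowest 5 mm (distal end) of a left femur. The first group was wild type with vehicle, and the second was wild type with estrogen, harvested 4 hours after treatment. The next group carried the osteoclast-specific deletion of estrogen receptor alpha and served as the knockout control; its labels name only the ovariectomy, and its vehicle is taken from the design text. The last was the same knockout with estrogen for 4 hours. Not given here in the sources are the Cre driver, the mice's age, and which estrogen was given at what dose. The series names Fas ligand as the mediator it set out to study, so the contrast asks which responses to estrogen depend on the receptor in osteoclasts.

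Estrogen receptor alpha, encoded by Esr1, is a nuclear receptor that binds DNA when it carries estrogen and raises or lowers the transcription of its targets. Loss of estrogen after ovariectomy speeds bone resorption by osteoclasts, which come from the myeloid lineage, and estrogen is known to shorten the life of these cells. A femur end holds osteoclasts, osteoblasts, osteocytes, growth plate, marrow cells of every blood lineage and any muscle left attached. In such a sample fewer cells of a type and less RNA per cell cannot be told apart.

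Facts of the arrays bear on every result that follows. Every array had been scaled to a 2% trimmed mean of 500, with medians between 153 and 217, and precision is limited by how many arrays there are. Summed signal of 23 skeletal muscle genes ran from 113861 to 939798 on replicates 1 and 2 and from 5975 to 48220 on replicates 3 and 4, without overlap. Replicate 2 of both wild-type groups and replicate 1 of the knockout estrogen group had the highest hybridization control signals (33096 to 59091, against 9350 to 17130 on the other arrays) and the highest 3' to 5' signal ratios of Actb (2.07 to 3.53, against 1.17 to 1.5). Bone cell types were present on every array: the summed signal of 24 osteoclast genes ran from 54157 to 107685 and that of 15 osteoblast genes from 142581 to 208425.

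Esr1, the deleted gene, was read first. Its 4 wild-type vehicle arrays read 792, 876, 1100 and 1011, and the wild-type estrogen arrays 475, 456, 434 and 664. Knockout arrays read 580, 627, 723 and 617 with vehicle and 753, 513, 484 and 409 with estrogen. The wild-type groups did not overlap, the knockout groups did, and every knockout vehicle array lay below every wild-type vehicle array. The knockout minus wild-type difference under vehicle was −0.55 on the log2 scale, and after estrogen it was 0.07. Wild type had a response of −0.89 ± 0.19 (SE), the knockout one of −0.26 ± 0.19, and the interaction was 0.62 ± 0.27 (limma, adjusted p = 0.374), with an exact stratified permutation p of 0.156. Of 2 other Esr1 probe sets, of lower signal, 1 had a wild-type response of −0.06 and an interaction of 0.13 (exact permutation p = 0.801), and the other −0.77 and 0.79 (exact permutation p = 0.0571). Other cells of the femur keep the gene, so the signal of the whole bone does not measure the deletion. Esr2, which encodes estrogen receptor beta, read from 12.1 to 132 and lay below the level required for testing; its interaction in the fit without that filter was 0.13 ± 0.64.

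No gene passed the interaction test. At an adjusted p under 0.05 by limma 0 of 12735 genes were called (0%), the lowest adjusted p being 0.276. An unadjusted p under 0.05 was reached by 1536 genes (12.1%), of which 882 had an interaction above 0 (6.93%) and 654 below 0 (5.14%). With the replicate number as a paired block in place of the set term, 0 genes passed and 1452 reached an unadjusted p under 0.05. Among 3761 tested probe sets without a named gene, 0 passed and 254 had an unadjusted p under 0.05. Leaving out a single array changed the count in 1 of 16 cases: without knockout estrogen replicate 4, 46 genes passed, 45 above 0 and 1 below. These 46 of 12735 genes held 13 of the 23 tested members of the skeletal muscle list and 4 of the 20 of the collagens list. Among the 24 genes of smallest p described here were 6 of the 46. Those 24 were chosen by the same contrast on arrays that include these, so the overlap follows in part from the choice.

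Few genes passed in each genotype's own response. In wild type 5 genes passed (0.0393%) and 1596 had an unadjusted p under 0.05 (12.5%), 682 higher after estrogen (5.36%) and 914 lower (7.18%). In the knockout 1 gene passed (0.00785%) and 948 had an unadjusted p under 0.05 (7.44%), 417 higher (3.27%) and 531 lower (4.17%). With the replicate number as a paired block in place of the set term, 0 genes passed in either genotype. The wild-type count moved widely with single arrays. It was 78 without knockout estrogen replicate 1, 72 without wild-type estrogen replicate 4, 48 without wild-type estrogen replicate 1, 47 without knockout estrogen replicate 4, 11 without knockout vehicle replicate 3 and 8 without wild-type vehicle replicate 1. It was 1 without wild-type vehicle replicate 4 and 0 without wild-type vehicle replicate 2 or 3 or wild-type estrogen replicate 2 or 3. The knockout count ran from 0 to 4 in the same series: it was 4 without wild-type estrogen replicate 3, 2 without knockout estrogen replicate 2, and 0 without any 1 of the knockout vehicle arrays or without knockout estrogen replicate 3 or 4.

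The 5 genes that passed in wild type show how the interaction looks around the firmest responses. They were chosen by the p of the wild-type response, which is a term of the interaction, so their interactions are not independent of the choice. The direction and size of their knockout responses come from separate mice. The spread behind the wild-type p was estimated from the arrays of both genotypes. The knockout SE and p are therefore not independent of the choice either. Tex2, which moves lipids at the endoplasmic reticulum, was the gene that passed in both genotypes. It rose from 1084, 803, 886 and 888 to 1988, 1631, 1796 and 2210 in wild type, and from 937, 977, 890 and 1082 to 1617, 1873, 2745 and 2359 in the knockout. Estrogen arrays stood above all vehicle arrays in both genotypes. The responses were 1.04 ± 0.16 (adjusted p = 0.0161, limma) and 1.11 ± 0.16 (adjusted p = 0.0232), and their difference was 0.06 ± 0.22.

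Igf1, a growth factor that osteoblast lineage cells secrete, fell in wild type. Its arrays read 2029, 2897, 1402 and 1434 with vehicle and 918, 848, 389 and 651 with estrogen, a response of −1.45 ± 0.21 (adjusted p = 0.0161, limma). Knockout arrays read 1305, 1509, 1463 and 1432 with vehicle and 1892, 1639, 882 and 758 with estrogen. There the vehicle arrays lay close together while the estrogen arrays split by replicate set, 1 and 2 above and 3 and 4 below them, and the response was −0.24 ± 0.21. The interaction was 1.21 ± 0.30 (adjusted p = 0.276), and the 3 other Igf1 probe sets gave 0.90, 1.08 and 0.58.

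Klhl13, an adaptor of the Cul3 ubiquitin ligase, fell in wild type from 1106, 1540, 843 and 1016 to 498, 494, 397 and 483, a response of −1.21 ± 0.19 (adjusted p = 0.0212, limma). In the knockout it read 609, 487, 686 and 548 with vehicle and 608, 629, 645 and 381 with estrogen. All 4 knockout vehicle arrays were below all 4 wild-type vehicle arrays, and the knockout groups overlapped throughout. Its knockout response was −0.06 ± 0.19 and its interaction 1.15 ± 0.27 (adjusted p = 0.276), with 1.55 in replicates 1 and 2 and 0.76 in replicates 3 and 4. The second Klhl13 probe set gave 0.68 ± 0.73.

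Ikbke encodes a kinase of the innate immune pathway to NF-kappaB and interferon. In wild type it rose from 127, 94, 237 and 333 to 494, 739, 852 and 623, a response of 1.81 ± 0.26 (adjusted p = 0.0161, limma). Its knockout arrays read 262, 282, 252 and 514 with vehicle and 298, 320, 625 and 425 with estrogen. The wild-type groups were apart, whereas in the knockout the vehicle array at 514 exceeded 3 of the estrogen arrays. The knockout response was 0.33 ± 0.26 and the interaction −1.48 ± 0.36 (adjusted p = 0.276), −2.13 in replicates 1 and 2 and −0.83 in replicates 3 and 4. Fam167a fell in wild type by 1.51 on the log2 scale (SE 0.26, adjusted p = 0.046, limma), and its knockout response had the same sign, −0.61, with an interaction of 0.90 ± 0.36.

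The responses of the 2 genotypes come from separate mice, so the direction and size of genes chosen in one can be read in the other. Both come from 1 fit with a shared estimate of the spread. Genes of small p in one genotype thus tend to have a small SE in the other, and the counts by p below are not independent of the choice. Of the 100 genes of smallest p that were higher after estrogen in wild type, 60 were higher in the knockout too, where 51.4% of all genes were, and the median knockout response was 0.06 against a median of 0.83 in wild type. Of the 100 lower in wild type, 38 were lower in the knockout, where 48.6% of all genes were, with a median of 0.06 against −0.97. Read the other way, 53 of the 100 genes higher in the knockout were higher in wild type (47.9% of all genes), with a median of 0.04, and 67 of the 100 lower in the knockout were lower in wild type (52.1%), with a median of −0.11. An unadjusted p under 0.05 in the same direction was reached in the knockout by 9 of the 100 genes higher in wild type (3.27% of all genes) and 6 of the 100 lower (4.17%). In wild type it was reached by 19 of the 100 genes higher in the knockout (5.36%) and 14 of the 100 lower (7.18%).

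**Figure D1:**
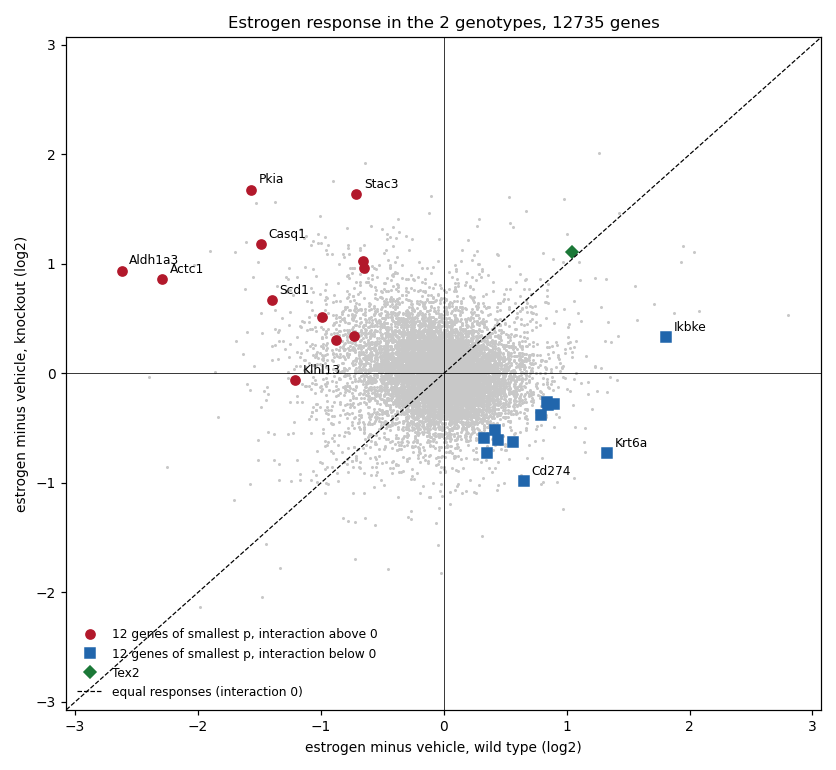
Estrogen minus vehicle difference of 12735 genes in wild type (horizontal axis, log2) and knockout (vertical axis, log2), each estimated from 8 arrays; the dashed line marks equal responses. Of the 12 genes of smallest interaction p in each direction, those above 0 lie in the upper left, apart from Klhl13 (−1.21 and −0.06), and those below 0 in the lower right, apart from Ikbke (1.81 and 0.33), while Tex2 lies on the line, with responses of 1.04 and 1.11.

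The pattern over the 4 groups was sorted by which genotype's response reached an unadjusted p under 0.05. These responses are the 2 terms of the contrast, so the counts describe the genes chosen by it and test nothing. Of the 882 genes with an interaction above 0, 436 were lower after estrogen in wild type alone, 185 were higher in the knockout alone, 45 had both responses past that level in opposite directions, 1 had both in the same direction and 215 had neither. Of the 654 below 0, 300 were higher in wild type alone, 171 were lower in the knockout alone, 27 had both in opposite directions and 156 neither. In both directions the wild-type response was the larger in absolute size for more genes, 575 of 882 and 387 of 654. The 882 genes had a median response of −0.56 in wild type against 0.39 in the knockout, and the 654 genes 0.39 against −0.31.

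The difference between genotypes under vehicle is a term of the contrast, so its direction in these genes follows from their choice. Among the 882 genes above 0 the knockout was below wild type under vehicle in all but 9, with a median knockout minus wild-type difference of −0.42, and after estrogen the median difference was 0.52. Among the 654 genes below 0 the knockout was above wild type under vehicle in 647, with a median of 0.30, and after estrogen the median was −0.41. Over all genes tested the medians of these differences were 0.00 and 0.02.

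Replicates 1 and 2 and replicates 3 and 4 were fitted apart, as 2 sets of 8 arrays that share no mouse. Over 12735 genes the interactions of the 2 sets had a Pearson correlation of 0.02 and a Spearman correlation of 0.02, a description across genes that are not independent of each other, and 50.4% of genes had the same sign in both. The 100 genes of smallest p were taken in each direction. Of those from replicates 1 and 2, 71 of the 100 above 0 and 74 of the 100 below 0 kept their sign in replicates 3 and 4, against 51.4% and 48.6% of all genes with that sign. Their median interaction was 2.71 in the choosing set and 0.32 in the other, and −1.61 and −0.17 for those below 0. Of those from replicates 3 and 4, 68 of the 100 above 0 and 56 of the 100 below 0 kept their sign in replicates 1 and 2, against 50.8% and 49.2% of all genes, with medians of 0.24 and −0.18 there. An unadjusted p under 0.05 in the same direction in both sets was reached by 52 genes above 0, which is 4.39% of the 1185 from replicates 1 and 2 where 2.48% of all genes were so called in replicates 3 and 4, and by 24 genes below 0, which is 2.7% of 888 against 1.5%. Read from the other set, the same genes are 16.5% of 316, against 9.31% of all genes, and 12.6% of 191, against 6.97%.

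In replicates 1 and 2 alone 4 genes passed (limma, adjusted p), and in replicates 3 and 4 alone 0 did, with 507 at an unadjusted p under 0.05. The 4 were genes of connective tissue: Ptn, a heparin-binding growth factor, Postn, the matrix protein periostin, Aspn, the proteoglycan asporin, and Itm2a, a membrane protein of cartilage and muscle. Their interactions were 4.39 (adjusted p = 0.0314), 3.51 (0.0314), 3.58 (0.0466) and 3.02 (0.0466) in replicates 1 and 2, and 0.35, 0.11, 0.05 and 0.95 in replicates 3 and 4. Postn is given by array: its knockout estrogen arrays read 14920, 11515, 5996 and 3236 against 2533, 4006, 9363 and 7440 with vehicle, so estrogen stood above vehicle in replicates 1 and 2 and below it in replicates 3 and 4. Its wild-type arrays read 7790, 9108, 7486 and 9246 with vehicle and 2941, 3120, 3693 and 4482 with estrogen, without overlap and alike in both sets.

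**Figure D2:**
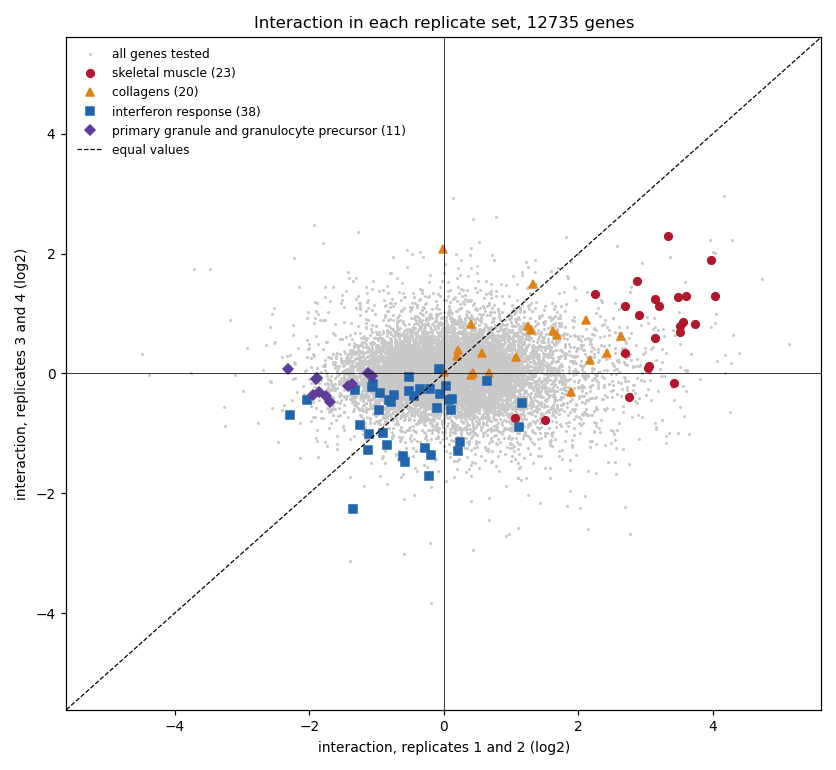
Interaction of 12735 genes in replicates 1 and 2 (horizontal axis, log2) and in replicates 3 and 4 (vertical axis, log2), with 4 gene lists marked and the dashed line at equal values. Skeletal muscle genes lie far to the right, with medians of 3.14 and 0.86, whereas interferon response genes lie low on both axes, with medians of −0.51 and −0.49.

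The 12 genes of smallest p above 0 were Stac3, Actc1, Mlip, Casq1, Ackr3, Scd1, Ephx2, Pkia, Aldh1a3, Npdc1, Klhl13 and Dusp7. Their interactions ran from 1.07 to 3.56, and none passed after adjustment (limma, adjusted p = 0.276 for each). All 12 were above 0 in each replicate set. Both sets entered the fit that chose these genes, so this follows largely from the choice. Of all 882 genes above 0 at an unadjusted p under 0.05, 93.7% had the same sign in both sets. Stac3, Actc1, Mlip and Casq1 are genes of striated muscle: a component of excitation-contraction coupling, cardiac actin, a lamin-interacting protein and calsequestrin. Stac3 read 597, 359, 46.6 and 73.3 in wild type with vehicle and 216, 286, 35.9 and 32.9 with estrogen, then 150, 236, 23.2 and 19.5 and 1107, 392, 74.4 and 118 in the knockout. Within each replicate set every wild-type estrogen array lay below the vehicle arrays and every knockout estrogen array above them, while the sets differed from each other by far more. The interaction was 2.36 ± 0.45, 2.58 in replicates 1 and 2 and 2.13 in replicates 3 and 4, and Actc1, Casq1 and Mlip gave 3.15 ± 0.64, 2.67 ± 0.58 and 1.68 ± 0.36.

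Mlip was the muscle gene whose level did not separate the replicate sets. Its arrays read 755, 866, 782 and 736 in wild type with vehicle, 755, 359, 396 and 537 in wild type with estrogen, 373, 436, 635 and 537 in the knockout with vehicle and 1485, 727, 1251 and 752 in the knockout with estrogen. All knockout estrogen arrays were above all knockout vehicle arrays, and its interaction was 1.95 and 1.42 in the 2 sets.

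Scd1, the desaturase that makes monounsaturated fatty acids, read 10043, 13959, 2050 and 2256 in wild type with vehicle and 2531, 2743, 1666 and 1136 with estrogen, then 2472, 2735, 1357 and 913 and 9561, 4045, 1213 and 1157 in the knockout. In replicates 1 and 2 the wild-type vehicle arrays and the knockout estrogen arrays were the high ones, and in replicates 3 and 4 the knockout groups overlapped. Its interaction was 2.07 ± 0.45, 3.41 in the first set and 0.73 in the second. Ephx2, the soluble epoxide hydrolase, gave 1.51 ± 0.33 and Aldh1a3, which makes retinoic acid, 3.56 ± 0.81; 2 other Aldh1a3 probe sets of lower signal gave −0.03 and 0.72. The adipocyte list, which holds Scd1, had 6 of 12 members above 0 and 6 below, with a median of 0.30 that was 0.75 and −0.06 in the 2 sets and 0.07 without knockout estrogen replicate 1.

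Ackr3, a scavenging chemokine receptor, had an interaction of 1.60 ± 0.35, Pkia, an inhibitor of protein kinase A, 3.25 ± 0.74, Npdc1, a neural differentiation gene, 1.07 ± 0.25, and Dusp7, a phosphatase of ERK kinases, 1.19 ± 0.28. Npdc1 held the same size in both sets, 1.13 and 1.02: it read 901, 1522, 1005 and 1051 with vehicle and 748, 725, 644 and 529 with estrogen in wild type, and 720, 865, 1040 and 714 and 1130, 1068, 1139 and 886 in the knockout. Wild-type estrogen arrays lay below all wild-type vehicle arrays, and knockout estrogen arrays above all wild-type estrogen arrays. The 2 other Dusp7 probe sets had the opposite sign, −0.35 and −0.31.

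The 12 genes of smallest p below 0 were C5ar1, Cep19, Cd274, Arhgap25, Krt6a, Xdh, Psmb9, Arhgap15, Ikbke, Tbc1d31, Donson and Acpp. Their interactions ran from −2.06 to −0.92 (adjusted p = 0.276 for each, limma), all below 0 in both replicate sets. That too follows largely from the choice: 96.3% of the 654 genes below 0 at an unadjusted p under 0.05 had the same sign in both sets. Several of the 12 belong to white blood cells. Cd274, which encodes the immune checkpoint ligand PD-L1, read 148, 78.9, 138 and 151 in wild type with vehicle and 162, 232, 224 and 211 with estrogen. In the knockout it read 253, 169, 205 and 181 with vehicle and 63.1, 117, 99.3 and 100 with estrogen. Of the 24 genes it was the one whose estrogen and vehicle arrays did not overlap in either genotype, above vehicle in wild type and below it in the knockout. Its responses were 0.65 ± 0.26 and −0.98 ± 0.26 and its interaction −1.63 ± 0.37, −1.87 in replicates 1 and 2 and −1.39 in replicates 3 and 4.

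C5ar1, the complement C5a receptor of neutrophils and macrophages, read 762, 637, 778 and 801 with vehicle and 1360, 2060, 1113 and 904 with estrogen in wild type, then 1153, 1050, 752 and 912 and 698, 917, 642 and 687 in the knockout. The wild-type groups were apart and the knockout groups overlapped, with responses of 0.79 ± 0.19 and −0.38 ± 0.19. Its second probe set gave an interaction of −0.59 ± 0.39, against −1.17 ± 0.26 here.

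Arhgap15 and Arhgap25, Rac GTPase-activating proteins of leukocytes, had interactions of −0.93 ± 0.23 and −1.08 ± 0.25. Arhgap15 read 1076, 1002, 1076 and 1145, then 1628, 1442, 1468 and 1251 in wild type, and 1344, 1016, 1134 and 1242, then 603, 750, 1097 and 907 in the knockout. After estrogen every knockout array was below every wild-type array, while under vehicle the genotypes overlapped. Xdh, xanthine dehydrogenase, gave −1.10 ± 0.26, Cep19, a centrosomal protein, −1.18 ± 0.27, Donson, a replication fork protein, −0.92 ± 0.23 and Acpp, a transmembrane acid phosphatase, −1.14 ± 0.29. Krt6a, a keratin, gave −2.06 ± 0.48, but 1 of its other probe sets gave 1.22, and Tbc1d31, a centrosomal protein, gave −1.19 ± 0.30 with 0.30 and −0.59 in its other probe sets.

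**Figure D3:**
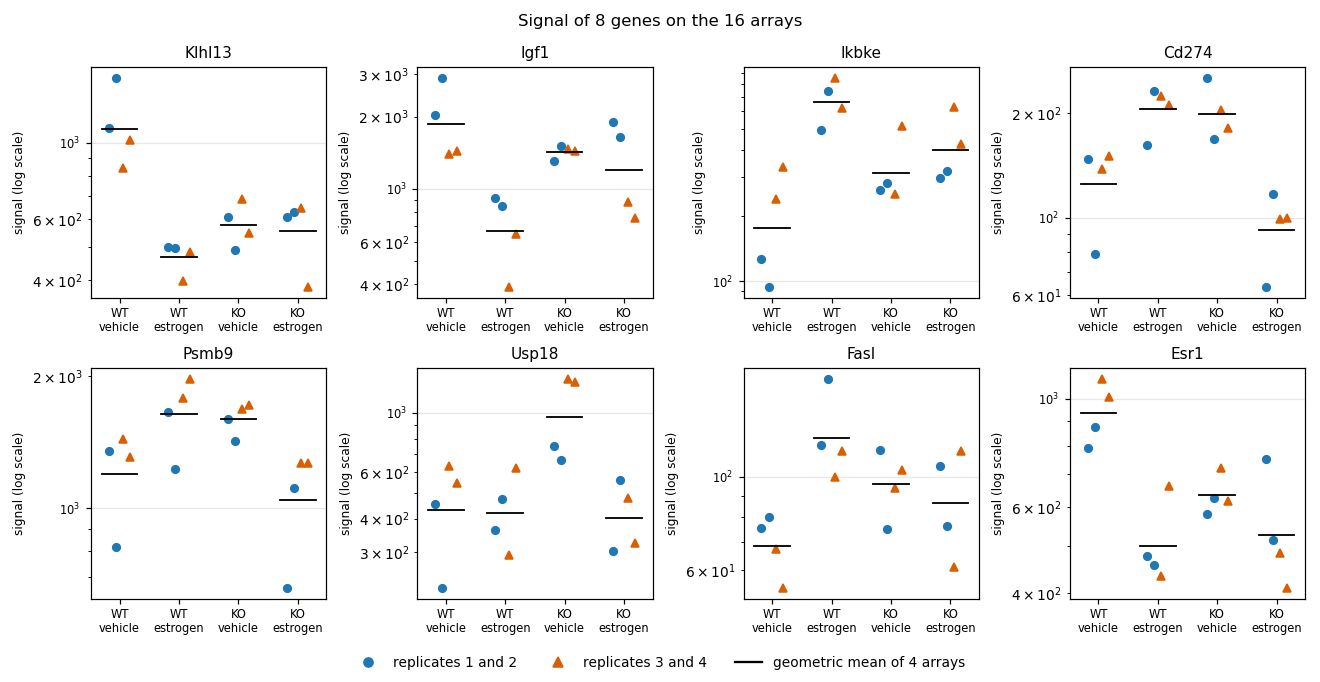
Signal of 8 genes (vertical axes, log scale) on each of the 16 arrays by group, with replicates 1 and 2 as circles, replicates 3 and 4 as triangles and the geometric mean of 4 arrays as a bar. Klhl13, Igf1 and Ikbke separated the treatments in wild type, Usp18 and Psmb9 in the knockout, and Cd274 in both genotypes in opposite directions.

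Interferon response genes had an interaction below 0 of like size in both replicate sets. These genes are switched on by type I or type II interferon through Stat and Irf factors and encode antiviral enzymes, chemokines and parts of antigen processing. Of 38 members tested, 34 had an interaction below 0 and 4 above, where 51.1% of all genes tested were above 0. None passed after adjustment, and 9 had an unadjusted p under 0.05, all below 0 (5.14% of all genes in that direction). The median was −0.62, −0.51 in replicates 1 and 2 and −0.49 in replicates 3 and 4, against 0.01 over all genes in each set, and 28 of the 38 had the same sign in both sets (50.4% of all genes). The larger response was that of the knockout: its median was −0.64, with 27 of 38 lower at an unadjusted p under 0.05 (4.17% of all genes) and 0 higher, and −0.10 in wild type, with 5 lower (7.18%) and 2 higher (5.36%). The knockout also started higher, by a median of 0.60 under vehicle, and after estrogen the median genotype difference was 0.04.

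Summed signal of the 38 genes ran from 58834 to 62818 in wild type with vehicle, from 51939 to 64874 in wild type with estrogen, from 68186 to 90573 in the knockout with vehicle and from 50937 to 79577 in the knockout with estrogen. The knockout vehicle mice therefore stood above both wild-type groups without overlap, and the other 3 groups overlapped each other. In replicates 1 and 2 the knockout estrogen arrays differed, at 50937 and 79577 against 86101 and 68186 with vehicle. In replicates 3 and 4 both were lower, at 61171 and 53572 against 90275 and 90573. Without the 3 arrays of high hybridization control signal the median interaction was −0.29, and with any single array left out it lay between −0.75 and −0.46. Whether those arrays play a part in the result was not tested.

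Usp18 and Irf7, an interferon-induced protease and an interferon regulatory factor, show the pattern. They were named after their values were seen. Usp18 read 454, 219, 633 and 546 in wild type with vehicle, 361, 473, 292 and 621 with estrogen, 749, 665, 1342 and 1308 in the knockout with vehicle and 302, 561, 477 and 323 with estrogen. Its knockout vehicle arrays lay above the arrays of all other groups. The responses were −0.04 ± 0.29 and −1.23 ± 0.29 and the interaction −1.19 ± 0.42, −1.12 in replicates 1 and 2 and −1.27 in replicates 3 and 4. Irf7 read 895, 924, 877 and 1281 and then 948, 971, 489 and 1525 in wild type, and 1687, 1617, 2289 and 2504 and then 667, 1399, 1090 and 647 in the knockout. Its interaction was −1.02 ± 0.42, and again the knockout vehicle arrays were the high ones.

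Cxcl10, a chemokine that attracts T lymphocytes, had an interaction of −1.81 ± 0.68 and Dhx58, a regulator of RNA sensing, of −1.48 ± 0.56, the 2 largest in the list. Cxcl10 read 26.8, 177, 207 and 218 and then 130, 22.5, 244 and 266 in wild type, and 192, 209, 611 and 701 and then 18.6, 125, 172 and 130 in the knockout. Knockout estrogen arrays lay below all knockout vehicle arrays, and in each wild-type group 1 array was far below the rest. Psmb9 and Psmb8, subunits of the immunoproteasome, departed from this pattern in wild type, where their responses were 0.44 ± 0.18 and 0.43 ± 0.20; in the knockout they were −0.61 ± 0.18 and −0.37 ± 0.20. Psmb9 read 1350, 817, 1436 and 1309 and then 1657, 1227, 1786 and 1972 in wild type, and 1600, 1423, 1684 and 1715 and then 659, 1115, 1268 and 1272 in the knockout. Its knockout groups did not overlap and its interaction was −1.05 ± 0.25, −1.24 and −0.86 in the 2 sets.

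Promoters of interferon genes carry the interferon-stimulated response element, to which Irf and Stat complexes bind. Its core was searched as GAAANNGAAA on both strands of RefSeq promoter windows of the mouse build GRCm38.p6, from 250 bases before to 50 after each gene start. Windows were found for 28 of the 38 interferon list members, and 15 of these 28 genes (53.6%) held the core, against 3.99% of 27025 genes with a window. In the collagens list 0 of 15 genes with a window held it. The full estrogen response element GGTCANNNTGACC was in 0 of the 7 and 0 of the 9 genes with a window among the 12 of smallest p above and below 0, and in 0.074% of all genes. A match is a description of letters and not evidence of binding. Of the 9 list members with an unadjusted interaction p under 0.05 (limma), Cxcl10, Stat2 and Trim30a held the core upstream of the start. Dhx58, also among the 9, had no match or no window. Ifit1 and Oas3 are shown as members with larger knockout responses (−1.26 and −1.19). Only members with a match are shown, so the stretches do not tie the core to the interaction. Stat2 encodes a transcription factor of the type I interferon receptor, Trim30a a Trim family protein, Ifit1 a protein that binds viral RNA and Oas3 an oligoadenylate synthetase. Each stretch of 60 bases is given 5′ to 3′ on the strand of its gene with the core in capitals, where TTTC marks a core on the opposite strand and Ifit1 has 2 cores; the positions are chr5:92349068-92349127 (minus strand), chr10:128270251-128270310 (plus), chr7:104465195-104465254 (minus), chr19:34640779-34640838 (plus) and chr5:120777700-120777759 (minus).
Cxcl10: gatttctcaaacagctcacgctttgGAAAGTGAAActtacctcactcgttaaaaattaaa
Stat2: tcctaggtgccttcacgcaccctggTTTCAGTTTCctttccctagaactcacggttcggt
Trim30a: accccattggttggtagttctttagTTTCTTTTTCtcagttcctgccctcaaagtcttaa
Ifit1: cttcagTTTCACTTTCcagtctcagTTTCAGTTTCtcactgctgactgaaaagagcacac
Oas3: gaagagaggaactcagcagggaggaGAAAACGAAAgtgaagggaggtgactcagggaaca

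NF-kappaB genes, a list that holds Ikbke itself, had a median interaction of −0.27, with 18 of 20 members below 0. The median was −0.36 in replicates 1 and 2 and −0.11 in replicates 3 and 4. At an unadjusted p under 0.05 stood 2 of the 20, both below 0 (5.14% of all genes). Ikbke, already described for its small interaction p, was 1 of these 2. Nfkbie, an inhibitor of NF-kappaB, read 612, 529, 590 and 423 with vehicle and 248, 374, 399 and 375 with estrogen in the knockout, without overlap, and its interaction was −0.71 ± 0.44, or −0.38 without wild-type vehicle replicate 2.

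Genes of granulocytes were lower in the interaction, chiefly in replicates 1 and 2. Primary granule genes encode the enzymes that promyelocytes load into their granules. All 11 tested members had an interaction below 0, with a median of −0.99, and 8 had an unadjusted p under 0.05 (5.14% of all genes below 0). The median was −1.75 in replicates 1 and 2 and −0.18 in replicates 3 and 4, and 9 of the 11 had the same sign in both. Here the larger response was that of wild type: 9 of 11 were higher at an unadjusted p under 0.05 (5.36% of all genes) with a median of 0.82, and the knockout median was 0.00 with 2 lower (4.17%). Without the 3 arrays of high hybridization control signal the median interaction was −0.43. Summed signal ran from 56154 to 73949 and from 91492 to 164659 in wild type with vehicle and estrogen, which did not overlap, and from 61546 to 78414 and from 41548 to 112720 in the knockout, which did.

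Elane and Prtn3, neutrophil elastase and proteinase 3, and Mpo, myeloperoxidase, are the abundant proteins of these granules and were named after their values were seen. Elane read 8996, 7759, 12401 and 13880 and then 16543, 26930, 21212 and 18712 in wild type, and 10377, 14256, 11566 and 13835 and then 5795, 11673, 16356 and 19884 in the knockout. Wild-type estrogen arrays were above all wild-type vehicle arrays. In the knockout the groups overlapped in replicates 1 and 2, where 1 estrogen array was the lowest of the 16, and estrogen was above vehicle in replicates 3 and 4. Its interaction was −0.99 ± 0.37, −1.90 in the first set and −0.09 in the second. Prtn3 gave −0.77 ± 0.40 and Mpo −0.55 ± 0.30, with wild-type responses of 0.99 ± 0.28 and 0.63 ± 0.21. Without wild-type estrogen replicate 2 these interactions were −0.46 and −0.32.

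Late neutrophil genes had a median interaction of −0.67, with 14 of 18 below 0 and 6 at an unadjusted p under 0.05, all below 0 (5.14% of all genes). The median was −0.98 in replicates 1 and 2 and −0.10 in replicates 3 and 4, and it was −0.39 without wild-type estrogen replicate 2. Lrg1, a glycoprotein of neutrophil granules, read 2332, 1496, 2501 and 3142 and then 7080, 22977, 9859 and 5551 in wild type, and 3166, 4644, 2127 and 4309 and then 3261, 7374, 4489 and 6062 in the knockout. The wild-type groups were far apart and the knockout groups overlapped, with responses of 2.08 ± 0.38 and 0.57 ± 0.38 and an interaction of −1.51 ± 0.54. Ltf, lactoferrin, gave −0.24 ± 0.27. Pirb, an inhibitory receptor of myeloid cells and osteoclast precursors, had a wild-type response of 1.06 ± 0.25 and a knockout response of −0.05 ± 0.25.

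Cell cycle and DNA replication genes had a median interaction of −0.32 with 37 of 41 below 0, −0.68 in replicates 1 and 2 and 0.05 in replicates 3 and 4, and −0.13 without knockout estrogen replicate 1. At an unadjusted p under 0.05 stood 6 below 0 (5.14% of all genes) and 1 above (6.93%). Cdc25c, a phosphatase that starts mitosis, gave −1.02 ± 0.37, and Bub1, a spindle checkpoint kinase, −0.69 ± 0.34 (−0.44 without knockout estrogen replicate 1).

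Skeletal muscle genes had the interaction of greatest median among the 28 lists plotted. All 23 tested members were above 0, 18 at an unadjusted p under 0.05 (6.93% of all genes above 0), with a median of 2.11, 3.14 in replicates 1 and 2 and 0.86 in replicates 3 and 4, and 1.38 without the 3 arrays of high hybridization control signal, where 21 of 23 were above 0. Summed muscle signal ran from 24447 to 667810 in wild type with vehicle, 13016 to 262858 in wild type with estrogen, 10952 to 201857 in the knockout with vehicle and 5975 to 939798 in the knockout with estrogen. None of the 23 genes was at 0 on any array. How much muscle was attached to each sample is not stated in the labels, and its part in the muscle and matrix results was not tested.

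Pygm, muscle glycogen phosphorylase, and Myl1, a fast myosin light chain, had interactions of 2.93 ± 0.82 and 2.81 ± 0.78, the 2 largest in the list. Ckm, muscle creatine kinase, read 29451, 43152, 1744 and 1242 and then 11797, 19522, 1437 and 515 in wild type, and 6383, 16129, 607 and 516 and then 65893, 22124, 2940 and 201 in the knockout. All groups overlapped, and knockout estrogen held both the highest and the lowest of the 16 values. Its interaction was 2.19 ± 0.86.

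Subunits of the respiratory chain, the mitochondrial complexes that consume oxygen, had a median of 0.47, with 28 of 29 above 0 and 6 at an unadjusted p under 0.05, all above 0 (6.93%). The median was 0.86 in replicates 1 and 2 and 0.09 in replicates 3 and 4, 0.26 without knockout estrogen replicate 1, and 0.16 without the 3 arrays of high hybridization control signal. Cox8b and Cox7a1, the muscle isoforms, gave 2.37 ± 0.92 and 1.83 ± 0.76.

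Genes of the collagens list, which encode fibres and sheets of the bone, tendon and skin matrix, all lay on the same side of the contrast. All 20 tested had an interaction above 0 (51.1% of all genes), 11 at an unadjusted p under 0.05 (6.93% above 0), with a median of 0.90, 1.16 in replicates 1 and 2 and 0.37 in replicates 3 and 4, and 16 of 20 had the same sign in both. In wild type 11 were lower after estrogen at an unadjusted p under 0.05 (7.18% of all genes) and 0 higher, with a median of −0.65, and in the knockout 2 were higher (3.27%) and 0 lower, with a median of 0.20. Without the 3 arrays of high hybridization control signal the median interaction was 0.75, with 18 of 20 above 0. The list leaves out Col10a1, a collagen gene placed in the cartilage list. Its interaction was −0.99 ± 1.30, with −3.71 in replicates 1 and 2 and 1.74 in replicates 3 and 4.

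Col3a1, the chain of type III collagen, read 28437, 41939, 14357 and 17172 and then 13756, 10090, 5015 and 9415 in wild type, and 15843, 17767, 17326 and 14649 and then 40457, 31502, 13802 and 8306 in the knockout. Wild-type estrogen arrays lay below all vehicle arrays. Knockout vehicle arrays were close together, and the estrogen arrays lay above them in replicates 1 and 2 and below them in replicates 3 and 4. Its responses were −1.37 ± 0.29 and 0.26 ± 0.29 and its interaction 1.63 ± 0.42, 2.64 in the first set and 0.62 in the second. Col12a1, a fibril-associated collagen, gave 1.51 ± 0.45 and Col6a3, a chain of microfibrillar collagen, 1.17 ± 0.33. Col1a1, the chief collagen of bone, was named after its values were seen and stood at 0.02 ± 0.19, with signals from 26331 to 37644 over all 16 arrays. Its second probe set, of lower signal, gave 0.72 ± 0.35 (wild-type response −0.79, knockout response −0.07), so the probe sets disagree.

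Matrix crosslinking and proteoglycan genes had a median of 0.63, with 22 of 24 above 0 and 12 at an unadjusted p under 0.05, all above 0 (6.93%), and medians of 0.81 and 0.36 in the 2 sets. Fmod, the proteoglycan fibromodulin, gave 1.85 ± 0.54, 2.54 and 1.17 in the 2 sets, and Aspn 1.82 ± 0.78. Metalloproteinases and their inhibitors had 16 of 19 above 0 with a median of 0.46: Mmp2, a gelatinase of stromal cells, gave 1.22 ± 0.35, and Adam8, a protease of leukocytes, −1.19 ± 0.30. Adam8 read 1456, 1946, 1520 and 2067 with vehicle and 928, 1384, 1021 and 958 with estrogen in the knockout, without overlap. As with the collagens, the summed muscle signal differed between the same arrays, and its part was not tested.

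**Figure D4:**
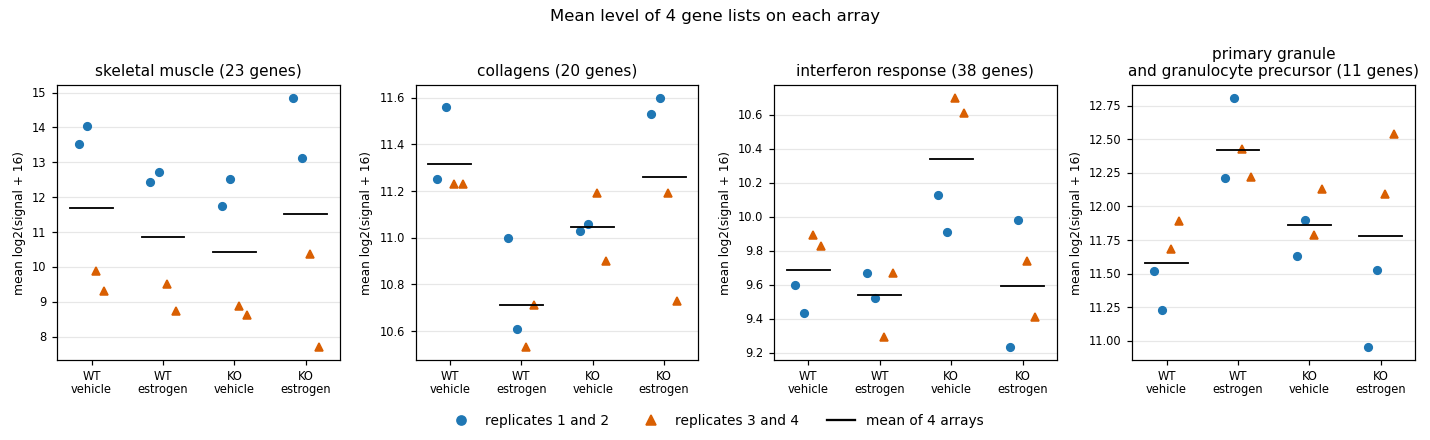
Mean log2(signal + 16) over the members of 4 gene lists (vertical axes) on each of the 16 arrays by group; circles are replicates 1 and 2, triangles replicates 3 and 4, bars the mean of 4 arrays. Muscle genes separate the replicate sets, from 11.75 to 14.85 and from 7.69 to 10.38, and interferon response genes are highest on 3 of the knockout vehicle arrays, at 10.13, 10.70 and 10.61.

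Growth factor pathways were read next. TGF-beta, activin and BMP genes had 31 of 39 above 0 with a median of 0.49, 12 above 0 (6.93%) and 1 below 0 (5.14%) at an unadjusted p under 0.05, and medians of 0.52 and 0.20 in the 2 sets. Tgfb3, a TGF-beta ligand, read 395, 649, 368 and 453 and then 495, 468, 513 and 320 in wild type, and 252, 365, 294 and 289 and then 1109, 902, 677 and 390 in the knockout. All knockout estrogen arrays exceeded all knockout vehicle arrays, which in turn lay below all wild-type vehicle arrays. Its responses were −0.04 ± 0.24 and 1.23 ± 0.24 and its interaction 1.27 ± 0.34. Inhbb, the activin B subunit, read 68.8, 76.6, 363 and 222 with vehicle and 372, 458, 425 and 424 with estrogen in the knockout, without overlap, and gave 1.78 ± 0.57.

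IGF axis genes had 12 of 16 above 0 with a median of 0.56 and 6 above 0 at an unadjusted p under 0.05 (6.93%), 1.03 in replicates 1 and 2 and 0.07 in replicates 3 and 4, and 0.37 without knockout estrogen replicate 2. Igfbp5, an IGF-binding protein of bone matrix, read 6332, 6953, 3227 and 3560 and then 2738, 2467, 779 and 2291 in wild type, and 3063, 4156, 3397 and 3229 and then 9470, 4852, 3005 and 2337 in the knockout. Its wild-type groups did not overlap and its interaction was 1.64 ± 0.42. Ghr, the growth hormone receptor, gave 1.24 ± 0.49, but 2.72 and −0.23 in the 2 sets. Wnt genes had 24 of 33 above 0 with a median of 0.24 (0.37 without knockout estrogen replicate 4) and 6 above 0 at an unadjusted p under 0.05 (6.93%): Rspo2, an enhancer of Wnt signalling, gave 1.77 ± 0.69 (1.17 without wild-type estrogen replicate 3) and Fzd8, a Wnt receptor, 1.51 ± 0.56.

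Osteoclast genes, those of the resorbing cell from which the receptor was deleted, had 13 of 24 above 0 and 11 below (51.1% of all genes above 0), a median of 0.03 (−0.05 without wild-type estrogen replicate 4) and 2 at an unadjusted p under 0.05, both above 0 (6.93%). Ctsk, the collagen-degrading protease cathepsin K, read 5683, 5971, 12379 and 10884 and then 5738, 3295, 11500 and 7226 in wild type, and 4614, 5115, 11047 and 8986 and then 4110, 8327, 13852 and 12228 in the knockout. Replicates 3 and 4 were above replicates 1 and 2 in all 4 groups, and the groups overlapped. The interaction was 0.71 ± 0.30 (limma, adjusted p = 0.369), 0.69 and 0.73 in the 2 sets, with an exact stratified permutation p of 0.0633. Dcstamp, which lets osteoclast precursors fuse, gave 0.74 ± 0.30, Mitf, an osteoclast transcription factor, 0.76 ± 0.43 (0.44 without knockout estrogen replicate 1), and Acp5, tartrate-resistant acid phosphatase, 0.05 ± 0.30. Tnfrsf11b, which encodes osteoprotegerin, the decoy receptor that limits osteoclast formation, gave 0.99 ± 0.43, 0.98 and 1.00 in the 2 sets. The RANKL, osteoprotegerin and M-CSF list had 8 of 18 above 0 and a median of −0.05, which was 0.04 without knockout estrogen replicate 1.

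Osteoblast genes were above 0 in 15 of 15 with a median of 0.28 and 3 at an unadjusted p under 0.05 (6.93%), and their median was 0.56 without wild-type estrogen replicate 1. It was 0.09 and 0.20 in the 2 sets, between which 7 of the 15 had the same sign (50.4% of all genes). Osteocyte genes had 9 of 11 above 0, a median of 0.37 (0.18 without knockout estrogen replicate 2) and 4 at an unadjusted p under 0.05, all above 0 (6.93%). Cartilage genes had a median of 0.24 that was −0.62 in replicates 1 and 2, 1.11 in replicates 3 and 4 and −0.42 without knockout estrogen replicate 2, so it had no settled direction. B lymphocyte precursor genes did the same, with −1.20 and 0.91 in the 2 sets and −0.10 over all arrays, which was 0.21 without knockout estrogen replicate 1.

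Fasl, which encodes Fas ligand, lay below the filter on low signal, so limma was fitted without that filter to obtain its values. Wild-type arrays read 75.6, 80.1, 67.2 and 54.3 with vehicle and 119, 171, 99.6 and 115 with estrogen. In the knockout they read 116, 75.1, 94.1 and 104 with vehicle and 106, 76.5, 60.9 and 115 with estrogen. Estrogen arrays were above all vehicle arrays in wild type, and the knockout groups overlapped throughout. The responses were 0.72 ± 0.28 and −0.12 ± 0.28 and the interaction −0.84 ± 0.40 (limma, adjusted p = 0.504), −0.81 in replicates 1 and 2 and −0.88 in replicates 3 and 4. An exact two-sided permutation of treatment within genotype and replicate set, over 1296 arrangements, gave p = 0.0309, or 0.123 after adjustment over Fasl, Esr1, Fas and Ctsk; the smallest p it can give is 0.00154. The second Fasl probe set, of like signal, gave −0.08, with an exact permutation p of 0.903.

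The receptor gene Fas gave −0.54 ± 0.53 (exact permutation p = 0.372), with a wild-type vehicle range of 113 to 440. It was −0.28 without wild-type vehicle replicate 2 and −0.83 without knockout estrogen replicate 1. The list of the Fas and death receptor pathway had 15 of 20 members below 0, a median of −0.22 (−0.11 without wild-type estrogen replicate 4), and 1 at an unadjusted p under 0.05, below 0 (5.14%). That member was Bid, which carries the death receptor signal to mitochondria, at −0.98 ± 0.37, with −1.72 and −0.24 in the 2 sets. Casp8, the initiator caspase of the pathway, gave −0.90 ± 0.45, −1.89 and 0.09 in the 2 sets; its wild-type vehicle arrays read 997, 316, 1157 and 1289, and without the second of these the interaction was −0.51.

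Genes known to respond to estrogen in other tissues had 22 of 31 above 0, a median of 0.28 (0.14 without knockout estrogen replicate 2) and, at an unadjusted p under 0.05, 3 above 0 (6.93%) and 2 below (5.14%). Pgr, the progesterone receptor, read 128, 139, 65.9 and 112 and then 201, 238, 109 and 171 in wild type, and 173, 137, 223 and 125 and then 252, 222, 104 and 147 in the knockout. All groups overlapped, and the interaction was −0.53 ± 0.40, or −0.28 without knockout vehicle replicate 3. Immediate early genes had 19 of 33 above 0 and a median of 0.20, which was 0.11 without wild-type vehicle replicate 3. At an unadjusted p under 0.05 stood 1 above 0 (6.93% of all genes) and 4 below (5.14%). Dusp1 had the largest absolute interaction of the list, −1.07 ± 0.41. Egr3, a growth-induced transcription factor, read 152, 225, 276 and 154 and then 573, 352, 628 and 626 in the knockout, without overlap, and 304, 325, 288 and 297 and then 580, 218, 452 and 704 in wild type, with overlap; its interaction was 0.83 ± 0.40, or 0.52 without wild-type estrogen replicate 2. Circadian clock genes had 12 of 15 above 0 and a median of 0.40, which was 0.91 and 0.02 in the 2 sets. It was 0.23 without wild-type estrogen replicate 2. At an unadjusted p under 0.05 stood 3 above 0 (6.93% of all genes) and 2 below (5.14%), and the lowest interaction was −0.90. Dbp, an output gene of the clock, gave 1.62 ± 0.50 and Nr1d2, a repressor of the clock, 1.59 ± 0.48. The labels do not state the hour of harvest.

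**Figure D5:**
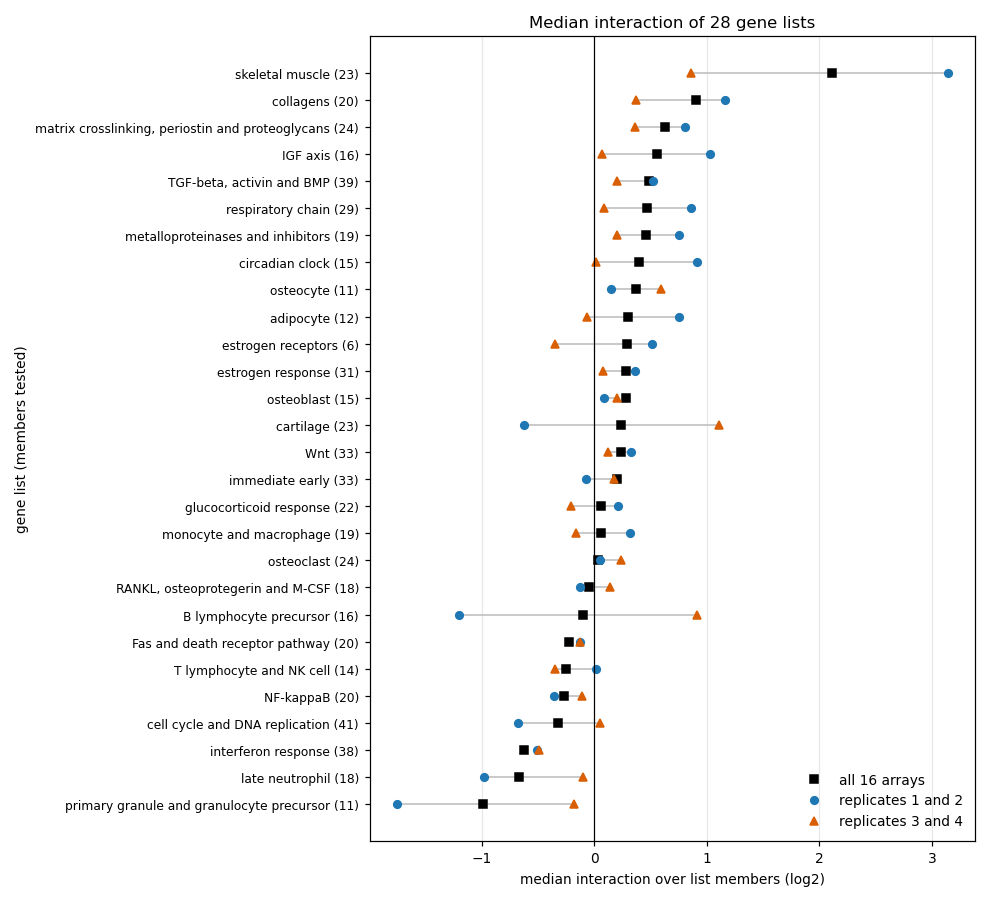
Median interaction (horizontal axis, log2) over the tested members of 28 gene lists, with the number tested in parentheses, from all 16 arrays (squares), replicates 1 and 2 (circles) and replicates 3 and 4 (triangles). Lists run from primary granule genes at −0.99 to skeletal muscle at 2.11. The 2 sets lie on opposite sides of 0 for several lists, among them cartilage (−0.62 and 1.11), B lymphocyte precursor (−1.20 and 0.91) and estrogen receptor genes (0.51 and −0.35).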

How the data were processed

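For 16 arrays the authors deposited linear signal intensities per probe set, which GCOS produced according to the submitters' processing notes; they were used without further normalization. No label states its version or background steps. Of 45101 probe sets, 64 were controls, 34945 had 1 gene symbol in the platform annotation, 932 several and 9160 none; Entrez identifiers matched the RefSeq gene table for 34741. For each of 18193 genes the probe set with the highest mean log2 value was kept, and the 30% of lowest mean were left out (a signal of about 109), which left 12735. On log2(signal + 16), which understates the change of low genes, limma 3.58.1 in R 4.3.3 fitted 4 group means and the replicate set (11 residual degrees of freedom), with a variance trend; two-sided p-values received Benjamini-Hochberg adjustment across all tested genes, at a threshold of 0.05. The fit was tested on simulated data with independent noise, at the same threshold. It recovered 34 of 100 genes given an interaction of 1 on the log2 scale and 81 of 100 given 2, with 9 false calls. Interactions of about 1 would thus often be missed with this number of arrays.

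Named genes were the 12 of smallest interaction p in each direction, Esr1, Esr2, Fasl, Fas, Ctsk and Tex2, and up to 2 of largest absolute interaction from each list; the other genes given, among them those that passed in a single comparison, were named after their values were seen. The genes, the lists (28 of 48 are plotted) and the split into replicate sets were chosen with earlier results of these data known. Same-numbered arrays of different groups deviated together (24 correlations of 0.178 to 0.593, all above 0.1). Within a set differently numbered arrays did so as much (median 0.354 against 0.314). With the set difference removed, same-numbered arrays had a median correlation of −0.0645 (−0.175 to 0.296). Each group has 2 arrays in a set, so differently numbered arrays give the same values with the sign turned and add no comparison. The same-numbered values, which lay on both sides of 0, show no common pairing by number beyond the set. The labels do not say what the numbers share. Promoter windows are RefSeq's.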

Additional observations from a re-analysis of the deposited data

Results flagged for a closer look

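Among 384 groups of 4 arrays (96 genes), 22 single arrays stood apart from the other 3 by Dixon's criterion, which chance alone meets in about 1 of 20 groups. Of these, 8 were the signals of wild-type vehicle replicate 2: the lowest of its group for Cd274 (78.9), Psmb9 (817), Igsf6 (974), Csf3r (927), Bid (384), Dhx58 (109) and Bub1 (480), and the highest for Dusp7 (440). The other wild-type vehicle arrays that stood apart were replicate 1, highest for Mpeg1 (9595) and lowest for Cxcl10 (26.8), and replicate 4, highest for Inhbb (414) and Irf7 (1281). In wild type with estrogen, replicate 3 was lowest for Klhl13 (397) and Igfbp5 (779) and replicate 2 highest for Mpo (53936). In the knockout with vehicle, replicate 4 was highest for Ikbke (514) and Bid (1153) and replicate 3 for Mitf (445). In the knockout with estrogen, replicate 4 was lowest for Klhl13 (381), replicate 2 lowest for Egr3 (352), and replicate 1 highest for Cd5 (242) and lowest for Nfkbie (248).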

How the results depend on the processing

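The interaction count at an unadjusted p under 0.05 was 1536; it was 970 without a set term, 815 without the 3 arrays of high hybridization control signal, 507 in replicates 3 and 4 alone, 2358 over every probe set, 1452 with the replicate block, and 1024 to 1937 with 1 array left out. The count passing after adjustment (limma) was 0, but 4 in replicates 1 and 2 alone, and 0 to 46 with 1 array left out. Wild-type calls (5) became 0 with no set term, with the replicate block, without the 3 arrays and in each set alone, and ran from 0 to 78 with 1 array left out. Knockout calls (1) became 0 with no set term, with the replicate block, without a variance trend and in each set alone, 15 with array weights and 3 without the 3 arrays, and ran from 0 to 4 with 1 array left out. The sign turned for Esr2 (−0.17 with array weights, −0.32 without the 3 arrays, −1.26 in replicates 3 and 4 alone, and −0.22 to 0.56 with 1 array left out) and Col10a1 (0.42, 0.75 and 1.74 in the same settings, and −1.86 to 0.03 with 1 array left out). It also turned in replicates 3 and 4 alone for Tnn (−0.05), Prg4 (−0.06), Csf3r (0.07), Casp8 (0.09), Ghr (−0.23) and Ltf (0.01), and in replicates 1 and 2 alone for Tex2 (−0.08) and Acp5 (−0.32). Leaving out 1 array moved Tex2 from −0.06 to 0.17, Col1a1 from −0.03 to 0.09, Acp5 from −0.06 to 0.31 and Ltf from −0.37 to 0.00, and Fasl stayed below 0, at −0.72 or lower. Col1a1 was −0.19 after quantile normalization and −0.00 without the 3 arrays. The smaller fits hold fewer arrays, and the cause of these changes was not tested. Among the gene values under all alternatives, 2615 kept sign and side of the threshold, 36 turned sign and 19 passed the threshold that they had missed.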
